A study of Mus musculus with 2 samples.

Results

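The genes described here are 42 named components of the lysosome: cathepsins and their inhibitor, glycosidases, lipid and peptide hydrolases, membrane proteins, the transcription factors that switch lysosomal genes on, and subunits of the proton pump. The rule that picks their probes uses the gene symbol alone, but the list itself was chosen with earlier results of these data known. The array carries 89 probes for these 42 genes out of 24813 named genes, and 41 of the 42 were measured on both arrays, as were 15715 genes in all. RNA came from spleen cells of ICR mice, an outbred stock, sorted with antibodies to CD11b and Ly6C and labelled as monocytes. One group had undergone 5/6 nephrectomy (5/6Nx), an operation that removes most of the kidney tissue and serves as a model of chronic kidney disease, and the other group was sham-operated. Both were sampled 8 weeks after the operation. Each group has 1 array, so no difference has a replicate check, no p-value was computed and no spread between mice can be given. The labels give neither the number of mice behind each RNA sample nor their age or sex.

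Lysosomes are acidic compartments in which monocytes and macrophages break down what they engulf and recycle their own material. The vacuolar H+-ATPase (V-ATPase) pumps protons into the lumen, and the acid environment activates proteases, glycosidases and lipases that would be weak at the pH of the cytosol. Transcription factors of the MiT/TFE family, TFEB among them, bind a short element called CLEAR in the promoters of many lysosomal genes.

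The CLEAR element is built around the letters TCACGTG, which contain the E-box core CACGTG. The 5 promoter stretches below hold it and are shown because each lies outside any annotated gene and together they cover members called lower (Ctsd, Gaa), higher (Mcoln1) and neither (Glb1, Lamp1): the protease gene Ctsd, the glycosidase genes Gaa and Glb1, and the membrane protein genes Lamp1 and Mcoln1. The sequences are from RefSeq on the mouse build GRCm38.p6, read 5′ to 3′ on the strand of the gene, with each CACGTG in capitals.
Ctsd: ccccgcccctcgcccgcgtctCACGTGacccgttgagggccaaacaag
Gaa: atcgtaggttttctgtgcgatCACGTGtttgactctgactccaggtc
Glb1: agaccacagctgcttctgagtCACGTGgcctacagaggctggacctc
Lamp1: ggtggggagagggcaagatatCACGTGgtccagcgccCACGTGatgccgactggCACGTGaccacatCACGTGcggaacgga
Mcoln1: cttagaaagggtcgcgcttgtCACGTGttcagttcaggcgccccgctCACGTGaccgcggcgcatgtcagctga
The Ctsd stretch lies on the minus strand at chr7:142387899-142387946, from 119 to 72 bases before the gene's start. The other stretches lie on the plus strand, Gaa at chr11:119267802-119267848, Glb1 at chr9:114401009-114401055, Lamp1 at chr8:13159079-13159160 and Mcoln1 at chr8:3500427-3500500. Lamp1 holds 4 copies of CACGTG in its last 82 bases before the start, and Mcoln1 holds 2 copies.

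Of the 42 genes, 35 have a RefSeq promoter window, which runs from 250 bases before the start to 50 bases after it. TCACGTG, searched on both strands, was found in 10 of these 35 members (28.6%), against 4.29% of all 27025 genes with a window. The shorter CACGTG was found in 12 members (34.3%), against 8.09% of all genes. Members that hold TCACGTG are Ctsa, Ctsd, Lgmn, Gla, Glb1, Gaa, Lamp1, Mcoln1, Atp6v0d1 and Atp6v1a, and Ctsf and Ctsl hold only the shorter one. A match of letters is a description and not a binding site.

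Unless another probe or a sum is named, a value below is the processed intensity of a gene's brightest probe that was well above background on both arrays. Intensities are printed as deposited and are not scaled between arrays: the 75th percentile of all non-control spots, to which each array was scaled, was 544 on the 5/6Nx array and 439 on the sham array. A difference is the 5/6Nx value minus the sham value in log2 units after that scaling, so a negative one means lower in 5/6Nx. A gene is called higher or lower from a difference of at least 2-fold. Intensities of different genes are not set against each other, because probes differ in brightness for reasons other than RNA. The summed scaled levels of cell type markers are an exception. They add the scaled linear level of each gene's highest probe on each array, with no background filter. Bright probes therefore weigh most in them, and signals below background are included. Among 285 probes printed at least 8 times, the spread between spots had an SD of 0.0519 on the 5/6Nx array and 0.0767 on the sham array in log2 units. It covers the printing and scanning of spots only.

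Lysosomal genes at least 2-fold lower in 5/6Nx monocytes than in sham monocytes outnumbered those at least 2-fold higher. Of the 41 measured members 18 were at least 2-fold lower, 2 were at least 2-fold higher and 21 differed by less. The lower members make up 43.9% of those measured, beside 11.0% of all measured genes, and the higher members 4.88%, beside 12.2% of all measured genes. The median difference was -0.85 over the members, with quartiles of -1.56 and -0.20, and -0.12 over all measured genes, with quartiles of -0.55 and 0.43. A negative difference was found for 33 members (80.5%), beside 56.8% of all genes. Nearly all members had bright probes, with 39 of the 41 brighter than the median gene. Among the 7857 genes brighter than that median 11.6% were at least 2-fold lower, 9.01% were at least 2-fold higher and 63.9% had a negative difference. The members' counts over the same brightness were 16 lower and 2 higher.

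**Figure D1:**
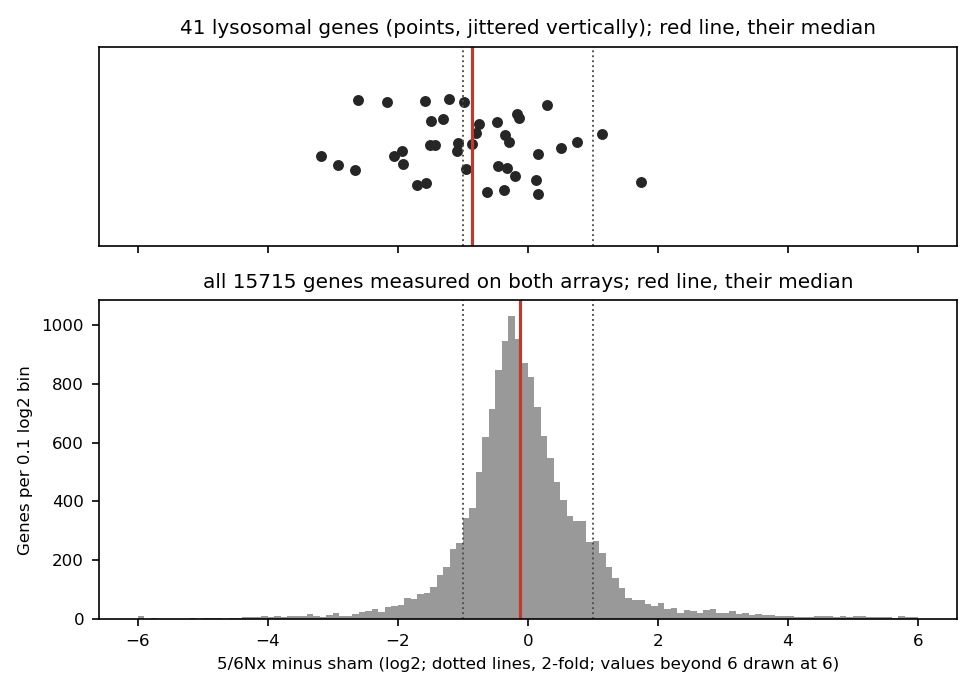
Differences of the lysosomal genes (upper panel, points) and of all measured genes (lower panel, number of genes per bin), 5/6Nx minus sham in log2 units, with dotted lines at 2-fold and red lines at the medians. The members' median lies at -0.85, left of the -0.12 of all 15715 genes.

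The samples also differed in the genes of other cell types. Of the T cell markers 10 of 11 measured were at least 2-fold higher in 5/6Nx, with a summed scaled level of 91.3 in 5/6Nx and 3.83 in sham, and 2 more, Cd8a and Trat1, were above background only in 5/6Nx. All 4 measured natural killer (NK) cell markers were higher, with sums of 32.9 in 5/6Nx and 0.788 in sham, and the other 6 were above background only in 5/6Nx. The platelet and megakaryocyte markers did not go one way. Of 6 measured, Pf4, Treml1 (-3.81) and Ppbp (-2.62) were lower, Clec1b (3.59) was higher, Gp1bb (-0.60) and Gp9 (-0.35) differed by less than 2-fold, and Itga2b was above background only in 5/6Nx. Their sums, 27.1 in 5/6Nx and 412 in sham, hold mainly Pf4. Monocyte and macrophage markers summed to 1769.96 in 5/6Nx and 1406 in sham, with 4 of 11 higher and 1 lower. The larger sum in 5/6Nx comes from the sort antigen genes Ly6c1 and Ly6c2. Of the 11 markers 6 had negative differences, and the median was -0.26. Median differences for the other lists were 0.77 for B cells, 0.30 for plasma cells, 0.93 for neutrophils, 1.63 for conventional dendritic cells, 0.23 for plasmacytoid dendritic cells, -0.72 for red pulp macrophages, 1.90 for basophils and mast cells and 2.70 for 1 measured erythroid gene. The largest difference in a list was that of Thy1 (6.47) for T cells, Il2rb (7.66) for NK cells, Pf4 (-4.31) for platelets, Cd79b (1.92) for B cells, Sdc1 (-2.10) for plasma cells and Lcn2 (7.31) for neutrophils. In the remaining lists it was that of Itgae (4.43), Bst2 (5.70), Spic (5.53), Fcer1a (2.32) and Hba-a1 (2.70), in the same order. Members of 1 list often differed in direction: 4 of 8 neutrophil markers were higher and 2 lower (Mmp8 at -3.97), 4 of 7 conventional dendritic cell markers were higher and 1 lower (Clec10a at -4.12), and 3 of 8 red pulp macrophage markers were higher and 4 lower (Trf at -4.08). The part of these markers in the values of the lysosomal genes was not tested. In a bulk sample, fewer cells of a type and less RNA per cell cannot be told apart. The sort antigen Itgam (CD11b) had an intensity of 31995 in 5/6Nx and 33016 in sham, a difference of -0.36, but its second probe gave -1.18. Ly6c1 and Ly6c2 were each higher by 1.98.

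Cathepsins are the main lysosomal proteases. Of the 12 genes for cathepsins, legumain and cystatin C, 6 were lower, 1 was higher and 5 differed by less than 2-fold, with a median of -1.02. The 6 lower genes were Ctsa, Ctsd, Ctsf, Ctsl, Lgmn and Cst3.

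Ctsd encodes the aspartic protease cathepsin D. It had an intensity of 52586 in 5/6Nx and 190464 in sham, a difference of -2.17, or 4.49-fold lower. The value rests on 1 probe, at chr7:149561962-149562021 on the build mm9. Ctsl encodes the cysteine protease cathepsin L, which also trims antigens and the invariant chain. Its intensity was 21005 in 5/6Nx and 70465 in sham, a difference of -2.06. The probe is printed 10 times, and its spots ranged from 19456 to 21741 in 5/6Nx and from 68615 to 73766 in sham, so the spots of the arrays did not overlap. A dimmer Ctsl probe was above background only in sham.

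Ctsa encodes protective protein cathepsin A, a serine carboxypeptidase that also stabilises beta-galactosidase and neuraminidase. Its intensity was 47275 in 5/6Nx and 107880 in sham, a difference of -1.5, and its second probe gave -1.81. Lgmn encodes legumain, an asparaginyl endopeptidase that processes other cathepsins. It had an intensity of 23902.5 in 5/6Nx and 54314 in sham, a difference of -1.49. Cst3 encodes cystatin C, a secreted inhibitor of cysteine cathepsins. Its intensity was 23102 in 5/6Nx and 39209 in sham, and its difference of -1.07 is close to the 2-fold line and was between -0.98 and -0.65 under 5 of the alternative settings. Ctsf, for cathepsin F, was dim, with an intensity of 18.5 in 5/6Nx and 113 in sham. Its difference of -2.92 came to -1.46 with a model-based background correction (normexp).

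The 1 gene of this group at least 2-fold higher was Ctsc. It encodes cathepsin C (dipeptidyl peptidase 1), the activator of granzymes in T and NK cells and of serine proteases in neutrophils. Its intensity was 24414.5 in 5/6Nx and 5916 in sham, a difference of 1.74, or 3.33-fold higher, and all 3 of its probes lay between 1.57 and 1.74. The T and NK cell markers given above were higher in the same sample, and their part in this value was not tested.

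Cathepsin genes with smaller differences included Ctss, for the cysteine protease that cuts the invariant chain in antigen-presenting cells. Its intensity was 166958 in 5/6Nx and 164876 in sham, a difference of -0.29 that became positive with loess (0.14) and with scaling to the control transcripts spiked into each RNA (spike-in scaling, 0.13). Ctsk, best known as the collagen-degrading protease of osteoclasts, had 2306 in 5/6Nx and 2099 in sham (-0.17, and 0.25 with spike-in scaling). Ctsb, for cathepsin B, had 100114 in 5/6Nx and 158754 in sham, and its difference of -0.98 lies just inside the 2-fold line. Neither aminopeptidase-like Ctsh nor carboxypeptidase Ctsz was lower. Ctsh had 44905 in 5/6Nx and 32622 in sham (0.15), with its 4 measured probes between 0.065 and 1.07, and Ctsz had 44951 in 5/6Nx and 32634 in sham (0.15).

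**Figure D2:**
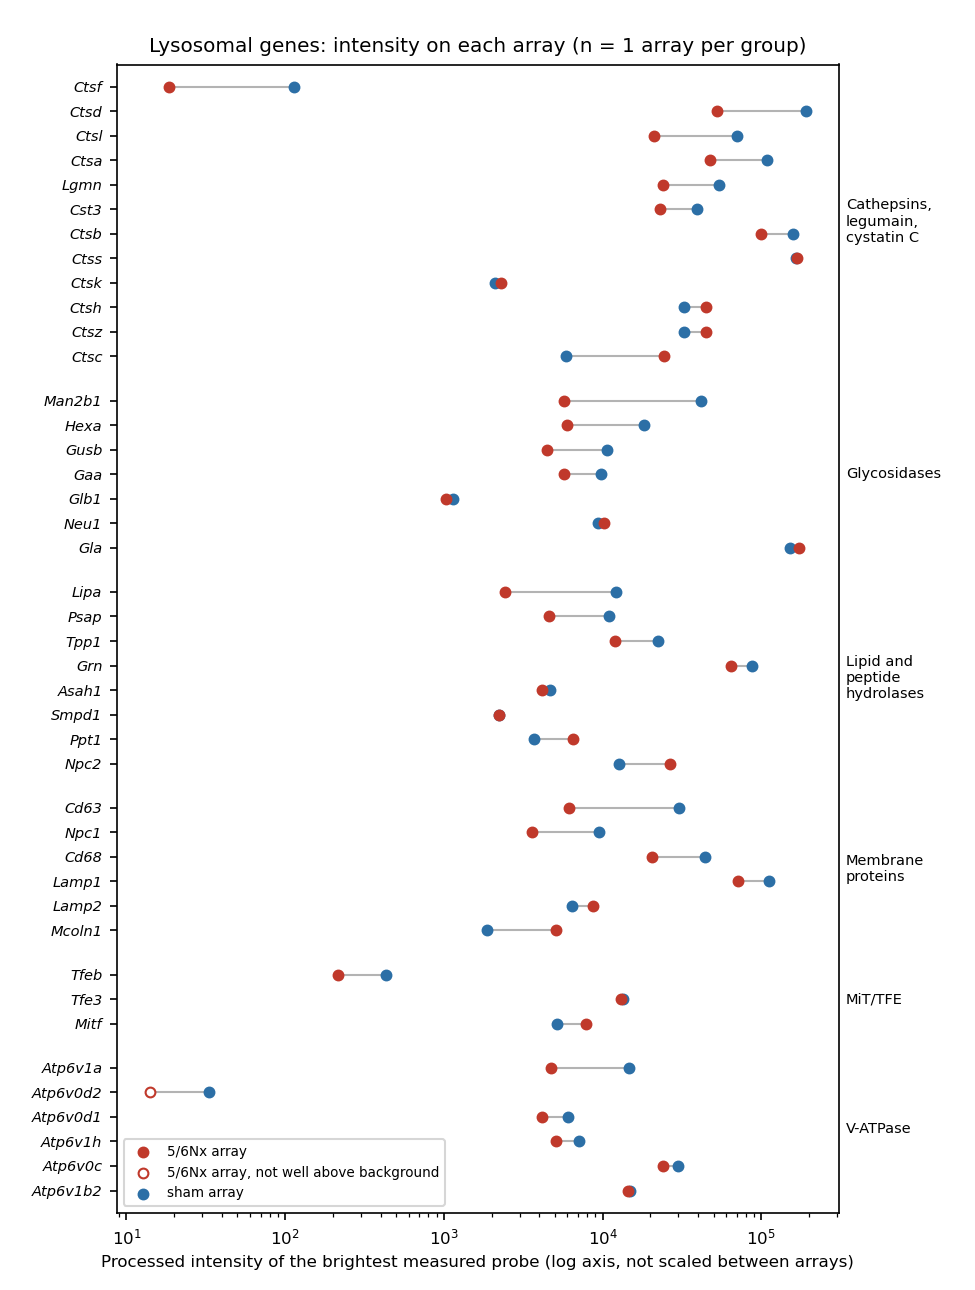
Processed intensity (log axis, not scaled between arrays) of each lysosomal gene on the 5/6Nx array and on the sham array, 1 array per group. Man2b1 shows the widest gap among the members measured on both arrays, with 5692 in 5/6Nx and 41478 in sham, and Ctsc lies the other way with 24414.5 in 5/6Nx and 5916 in sham.

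Glycosidases remove sugars from glycoproteins and glycolipids, and in humans inherited loss of each of these causes a storage disease. All 7 glycosidase genes had negative differences, although Gla and Neu1 turned positive with loess (0.30 and 0.10) and with spike-in scaling (0.28 and 0.22), and Gla also with quantile normalization (0.090) and in the authors' value table (0.089). Of the 7, Hexa, Gaa, Gusb and Man2b1 were at least 2-fold lower, and the median was -1.09.

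Man2b1, for lysosomal alpha-mannosidase, had the largest difference of all members measured on both arrays. Its intensity was 5692 in 5/6Nx and 41478 in sham, a difference of -3.18, or 9.03-fold lower, from 1 probe at chr8:87621348-87621407 on mm9. Hexa encodes the alpha subunit of beta-hexosaminidase, which degrades GM2 ganglioside. It had 5948 in 5/6Nx and 18169.8 in sham, a difference of -1.92. Gusb, for beta-glucuronidase, had 4492 in 5/6Nx and 10700.5 in sham (-1.56), while a second probe on a different transcript gave -0.74. Gaa encodes the acid alpha-glucosidase that digests glycogen. Its intensity was 5729.8 in 5/6Nx and 9813 in sham, a difference of -1.09, and its 3 probes lay between -1.41 and -1.09. It fell short of 2-fold with loess (-0.80), with spike-in scaling (-0.66), with quantile normalization (-0.95), with the 75th percentile over measured probes (-0.99) and, at -1.0 after rounding, in the authors' value table.

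The other 3 glycosidases stayed under 2-fold. Gla, for alpha-galactosidase A, had an intensity of 171861 in 5/6Nx and 152667 in sham (-0.14). Neu1, for the lysosomal sialidase, had 10141 in 5/6Nx and 9390.1 in sham (-0.20). Glb1, for beta-galactosidase, had 1029 in 5/6Nx and 1137 in sham (-0.45), with 6 probes between -0.65 and 0.36. Cathepsin A, beta-galactosidase and the sialidase form a complex in the lysosome, and of their 3 genes only Ctsa passed the 2-fold line.

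Among the 8 genes for lipid and peptide hydrolases, their helper proteins and progranulin, 3 were lower and none was higher, with a median of -0.62. Lipa encodes lysosomal acid lipase, which frees cholesterol from the cholesteryl esters of engulfed lipoproteins. Its intensity was 2409.9 in 5/6Nx and 12212 in sham, a difference of -2.65, or 6.28-fold lower, from 1 probe at chr19:34567717-34567776 on mm9. Psap encodes prosaposin, the precursor of the saposins that present sphingolipids to their hydrolases. It had 4579 in 5/6Nx and 11012 in sham (-1.58). Tpp1, for tripeptidyl peptidase 1, had 11922 in 5/6Nx and 22253 in sham (-1.21), which fell short of 2-fold with quantile normalization (-0.93), loess (-0.88) and spike-in scaling (-0.79).

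Asah1 and Smpd1 encode acid ceramidase and acid sphingomyelinase, and neither reached 2-fold. Asah1 had 4137 in 5/6Nx and 4657 in sham (-0.48). Smpd1 had 2213 in 5/6Nx and 2226 in sham (-0.32), but its second probe gave 0.58, and with spike-in scaling the difference was 0.11. Grn, for the secreted and lysosomal protein progranulin, had 64716 in 5/6Nx and 88018 in sham (-0.75). Its 3 probes did not go one way: a second gave -0.89, and the other had 5563 in 5/6Nx and 1801 in sham, a difference of 1.32. The mean over the probes was -0.11.

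Members of this group with positive differences were Npc2 and Ppt1. Npc2, the soluble protein that hands cholesterol to NPC1, had an intensity of 26673 in 5/6Nx and 12764 in sham, a difference of 0.75, and passed 2-fold with quantile normalization (1.04), loess (1.08) and spike-in scaling (1.18). Ppt1, for palmitoyl-protein thioesterase 1, had 6523 in 5/6Nx and 3708 in sham (0.50), with 4 probes between -0.079 and 0.50. NPC1 and NPC2 act in sequence, but their genes had opposite signs: Npc1, for the membrane protein that exports cholesterol, had 3589 in 5/6Nx and 9428 in sham, a difference of -1.70, with 3 probes between -1.81 and -1.42.

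Membrane proteins of the lysosome had a median difference of -1.19, with Cd63, Cd68 and Npc1 of the 6 lower and Mcoln1 higher. Cd63 encodes a tetraspanin of late endosomes, lysosomes and secretory granules, platelet granules among them. Its intensity was 6139 in 5/6Nx and 30356 in sham, a difference of -2.62, or 6.13-fold lower. The probe is printed 10 times, with spots between 5891 and 6477 in 5/6Nx and between 29500 and 31410 in sham. Of the 6 platelet markers given above 3 were lower in the same sample, Pf4 by the most (-4.31), and 1 was higher, and their part in the Cd63 value was not tested. Cd68, for the glycoprotein macrosialin, a macrophage marker, had 20393 in 5/6Nx and 44039.7 in sham (-1.42), and its 3 probes lay between -1.74 and -1.42, while spike-in scaling put it just inside the 2-fold line (-0.997).

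LAMP1 and LAMP2 are the abundant glycoproteins that line the lysosome's membrane, and their genes differed from one another. Lamp1 had an intensity of 71498 in 5/6Nx and 111968 in sham, a difference of -0.96 just inside the 2-fold line, and its second probe gave -1.13. Lamp2 had 8683 in 5/6Nx and 6406 in sham (0.13, and -0.021 when each array was scaled to its median). Its 3 probes match different transcripts and gave 0.13, -0.64 and 0.47. Mcoln1 encodes the calcium channel TRPML1 of the lysosome's membrane. It had 5116 in 5/6Nx and 1867 in sham, a difference of 1.14, or 2.21-fold higher, while a dim second probe had 62.2 in 5/6Nx and 72.7 in sham (-0.54). The mean over both Mcoln1 probes was 0.30, and scaling to the arrays' medians gave 0.99.

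**Figure D3:**
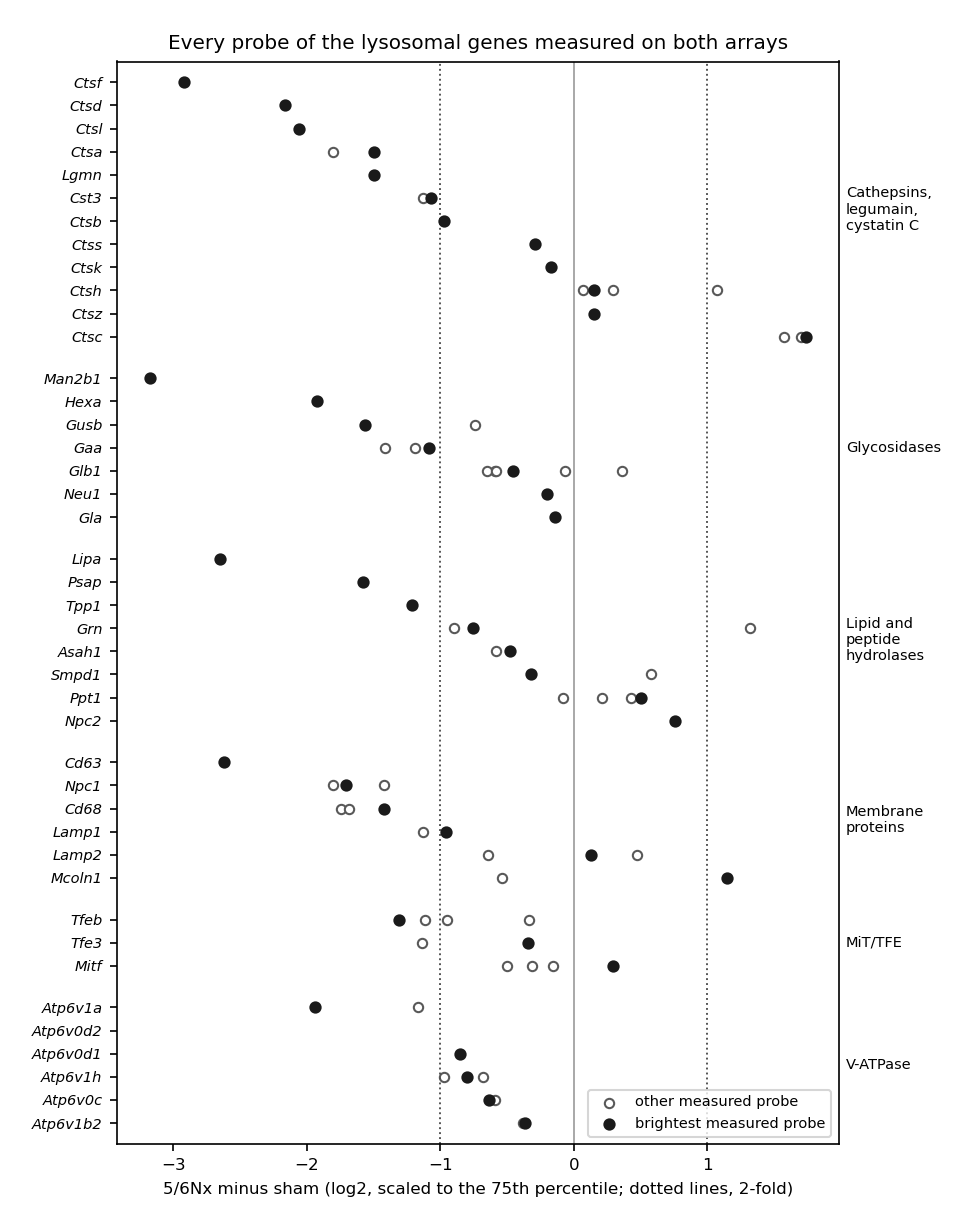
Difference of every measured probe of the lysosomal genes, 5/6Nx minus sham in log2 units, with dotted lines at 2-fold. Of 23 genes with several measured probes 7 have probes on both sides of 0: Glb1, Smpd1, Ppt1, Grn, Lamp2, Mcoln1 and Mitf.

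TFEB, TFE3 and MITF are the related transcription factors that act on CLEAR elements, and they are controlled largely by moving in and out of the nucleus, which an RNA measurement does not show. Tfeb had an intensity of 215 in 5/6Nx and 429.9 in sham, a difference of -1.31, with 4 probes between -1.31 and -0.33. This call rests on the setting, since normexp gave -0.31, the mean over probes -0.93 and spike-in scaling -0.89. Tfe3 had 13042 in 5/6Nx and 13383 in sham (-0.35, and 0.077 with spike-in scaling). A dim second Tfe3 probe had 21.4 in 5/6Nx and 38.0 in sham (-1.14), and the mean over the probes was -0.74. Mitf had 7869 in 5/6Nx and 5181 in sham (0.29), and its 4 probes lay between -0.50 and 0.29. Only the brightest Mitf probe was positive, and the mean over the probes was -0.17. Of the 10 members with TCACGTG in their promoter window, 5 were lower, 1 was higher and 4 differed by less than 2-fold, with a median of -1.02. Of the 25 members whose window lacks it, 12 were lower, 1 was higher and 12 differed by less, with a median of -0.75.

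The V-ATPase has a rotating cytosolic part, V1, which splits ATP, and a membrane part, V0, which carries the protons. All 5 subunits measured on both arrays had negative differences, with a median of -0.80, except that Atp6v1b2 was at 0.059 with spike-in scaling. Only Atp6v1a, for the catalytic A subunit, was at least 2-fold lower, with an intensity of 4737 in 5/6Nx and 14669 in sham (-1.94), and its second probe gave -1.17. Its partner in the catalytic ring, Atp6v1b2, had 14422 in 5/6Nx and 14977 in sham (-0.36). Atp6v1h, for the regulatory H subunit, had 5057 in 5/6Nx and 7106 in sham (-0.80).

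In the V0 part, Atp6v0c, for the proton-carrying c ring, had 23938 in 5/6Nx and 29949.6 in sham (-0.63). Atp6v0d1 and Atp6v0d2 encode alternative forms of the d subunit, of which d1 is made widely and d2 is known from osteoclasts and some macrophages. Atp6v0d1 had an intensity of 4169 in 5/6Nx and 6080.3 in sham (-0.85). Atp6v0d2 was not well above background in 5/6Nx, at 14, and had 33.2 in sham. That is 2.94-fold lower as observed, from 1 dim spot per array, and is not a firm lower limit. A second Atp6v0d2 probe was below background on both arrays, at 3.60 in 5/6Nx and 4.84 in sham. Genes above background on the sham array alone made up 2.36% of the 17746 genes above background on either array.

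**Figure D4:**
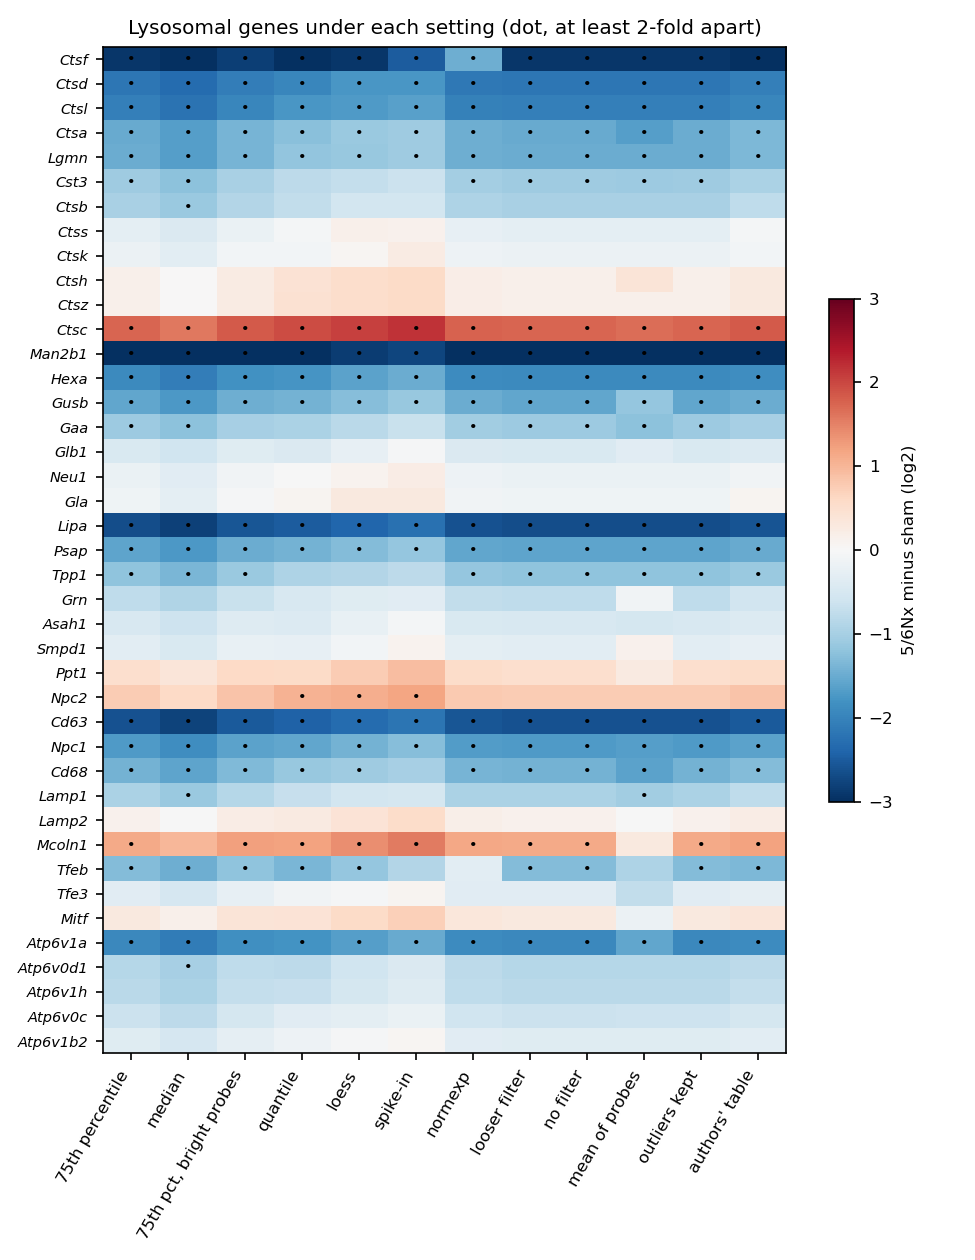
Difference of each lysosomal gene (rows) under each processing setting (columns), 5/6Nx minus sham in log2 units by colour, with a dot where a gene is at least 2-fold apart. Of the 18 lower genes, 13 have a dot in all 11 alternative settings drawn here.

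Other genes of the lysosomal pathway, none of them a member, were grouped by function for comparison. Of 41 measured other hydrolases and activators 14 were lower and 6 higher, beside 11.0% and 12.2% of all measured genes, with a median of -0.56. Manba, for beta-mannosidase, had 892 in 5/6Nx and 2936 in sham (-2.03), while its second probe gave -0.85. Acp2, for lysosomal acid phosphatase, had 2873 in 5/6Nx and 532 in sham (2.12). Ctsw, a cathepsin made by NK cells and cytotoxic T cells, had 2079 in 5/6Nx and 26.3 in sham (6.00), beside the T and NK cell markers above.

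Of 29 other membrane proteins and transporters 7 were lower and 4 higher, beside 11.0% and 12.2% of all measured genes. The higher ones are thus near the share over all genes. The median of this list was -0.18 and became 0.25 with spike-in scaling. Tpcn1, for a cation channel of endosomes and lysosomes, had 563 in 5/6Nx and 4554 in sham (-3.33), and its second probe gave -1.42. Gpnmb, a glycoprotein of macrophages with loaded lysosomes, had 3355 in 5/6Nx and 17179 in sham (-2.67). Scarb2, the receptor that carries glucocerebrosidase to the lysosome, had 1855 in 5/6Nx and 6999 in sham (-2.23). Laptm5, a lysosomal membrane protein of blood cells, had 3440.5 in 5/6Nx and 9992 in sham (-1.85).

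Among 15 measured other V-ATPase subunits and accessory proteins 14 had negative differences and 3 were at least 2-fold lower: Atp6v0e2 (-1.18), Atp6v1c1 (-1.18) and Atp6v0b (-1.01). Of all measured genes 56.8% had a negative difference, 11.0% were lower and 12.2% were higher. The median of these V-ATPase genes was -0.58, and none was higher. Of 15 genes that sort enzymes to the lysosome 2 were lower and none higher, a share near the 11.0% of all measured genes that were lower, with a median of -0.23 that became 0.19 with spike-in scaling. One of these, Sort1, for the sorting receptor sortilin, had 513 in 5/6Nx and 6074 in sham (-3.88), with its 3 probes between -4.08 and -1.14. The other, Vps18, for a subunit of the HOPS tethering complex, had -1.18. Lysosomal regulators of the growth kinase complex mTORC1 and relatives of TFEB had a median of -0.54 over 14 genes, of which Fnip2 (-1.55), for a partner of folliculin, and Rragc (-1.06), for a Rag GTPase, were lower, again close to the share over all genes.

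**Figure D5:**
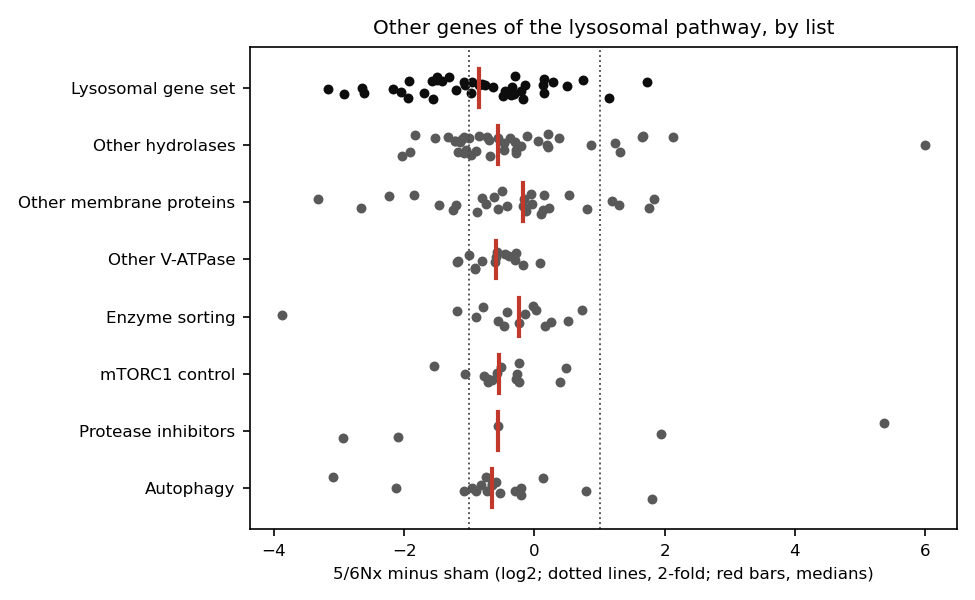
Differences of the genes in 7 other lists of the lysosomal pathway, 5/6Nx minus sham in log2 units, with dotted lines at 2-fold and red bars at the medians. Of 137 measured genes 33 are at least 2-fold lower and 13 higher, beside 11.0% and 12.2% of all measured genes, and their median is -0.52.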

How the data were processed

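Splenic monocytes were profiled on 1-colour Agilent arrays, 1 array per group, on the same slide and in the same scan, per the file headers. The deposited files give a linear intensity per spot, made with Agilent Feature Extraction, version 9.5.1.1 per the submitters' processing notes and 10.7.1.1 per the file headers. Background subtraction and detrending were applied within each array, per the file headers, with no scaling between arrays.

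Of 59305 non-control spots, 67.0% on the 5/6Nx array and 63.0% on the sham array were well above background, and none was saturated. The number of arrays limits the precision. Log2 of the processed intensity was reduced by the array's 75th percentile, spots flagged as outliers (47 on the 5/6Nx array and 41 on the sham array) were left out, and each probe's spots were averaged. Measured probes were those well above background on both arrays. The brightest of them stands for its gene. A probe above background on only 1 array was set against the higher of its dim signal and the lowest signal well above background. That lowest signal was 13.7 on the 5/6Nx array and 13.0 on the sham array. For Atp6v0d2 the dim signal was the higher, so its fold is the observed ratio. The RefSeq table of GRCm38.p6 served for names and gave none of the 89 member probes a name other than that in the files. A probe whose accession is not in that table was named by its symbol in the files. For such probes the agreement is therefore no check. Probe positions are those of the files, on mm9, and exon or UTR annotation of that build was not used here. Protein sequences were not analysed here.

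The members and lists were chosen with earlier results of these data known. All 42 members are reported. From each other pathway list, up to 4 genes at least 2-fold apart with the largest differences are named, and from each marker list the gene with the largest difference. Some genes this takes are not reported here. The scaling to the 75th percentile, the averaging of spots and the 2-fold calls were first tested on simulated data. The alternative settings, the choice among a gene's probes, the marker sums and the motif search were not. Python 3.11.15, R 4.3.3 and limma 3.58.1 were used, the last for normexp (offset 50), quantile and loess normalization. The alternatives were 5 other scalings (each array's median, the 75th percentile over measured probes, quantile, loess, and the median ratio of control transcripts spiked into the RNA), normexp, 2 other filters on dim probes, the mean over a gene's probes, outlier spots kept and the authors' value table of linear intensity, whose normalization the sources used here do not give.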

Additional observations from a re-analysis of the deposited data

How the results depend on the processing

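No paired analysis was possible because each group has 1 array, and for the same reason no array could be left out. Of the 18 lower members 13 stayed at least 2-fold lower under all 11 alternatives, and Cst3, Gaa, Tpp1, Cd68 and Tfeb did not under at least 1. The count of lower members ranged from 13 with spike-in scaling, where 5.52% of all genes were lower, to 21 with each array's median, where 14.2% were. The count of higher members was 1 with each array's median and with the mean over the probes, and 3 with quantile normalization, loess and spike-in scaling, where Npc2 joined. The members' median was -1.0 with each array's median, -0.76 with the 75th percentile over measured probes, with normexp and in the authors' value table, -0.70 with quantile normalization, -0.55 with loess and -0.43 with spike-in scaling. Beside these, the median of all genes was -0.27 with each array's median, 0.056 with loess and 0.30 with spike-in scaling. Among all genes at least 2-fold apart, 52.8% were higher as reported, 40.7% with each array's median and 79.1% with spike-in scaling. Of the 137 other pathway genes 33 were lower as reported, beside 11.0% of all genes. With loess 19 were lower, beside 8.52% of all genes, and with spike-in scaling 15, beside 5.52%. Among genes brighter than the median gene, an alternative chosen after seeing the data, 8 of these pathway genes were higher. The number of pathway genes this bright is not given here. The count of 8 can therefore not be set against the 9.01% of all such genes that were higher. Medians that turned positive with spike-in scaling were those of the MiT/TFE factors (0.077), the other membrane proteins (0.25) and the sorting genes (0.19). The median of the protease inhibitors became 1.95 with a looser filter on dim probes and 0.060 with none, since more genes then entered it. The cause of the other shifts was not tested. Dim genes such as Ctsf and Atp6v0d2 lie close to the background, which limits the precision of their values.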

Other observations

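Inhibitors of lysosomal proteases went both ways. Of 11 such genes on the array, 5 were measured on both arrays, with 2 higher, 2 lower and a median of -0.55. Of all measured genes 12.2% were higher and 11.0% lower. Serpinb6b, a serpin gene, had an intensity of 1562 in 5/6Nx and 30.5 in sham, a difference of 5.37, and Serpinb1a, for an inhibitor of neutrophil serine proteases, had 529.9 in 5/6Nx and 111 in sham (1.95). Serpinb6a had 1305 in 5/6Nx and 4483 in sham (-2.09), although another of its 3 probes gave -0.016, and Stfa2, for a cytosolic stefin that binds cysteine cathepsins, had 21.2 in 5/6Nx and 132 in sham (-2.95). Cst7, for cystatin F, an inhibitor of cathepsin C in lymphocytes and myeloid cells, was above background only in 5/6Nx, as were Stfa3 and Serpina3g. The share of all genes above background only in 5/6Nx is not given here. The T and NK cell markers were higher in the same sample, and their part in the values of these inhibitor genes was not tested.

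Autophagy delivers cytoplasm to the lysosome. Of 18 autophagy genes, all measured on both arrays, 15 had negative differences, with 3 lower, 1 higher and a median of -0.65. Of all measured genes 11.0% were lower, 12.2% higher and 56.8% negative, so the lower genes among them are close in share to the background. Gabarapl1, an ATG8 relative that coats autophagosomes, had an intensity of 6789 in 5/6Nx and 23928 in sham, a difference of -2.13, and both of its probes lay between -2.17 and -2.13. Map1lc3a, another ATG8 relative, was dimmer, with 34.1 in 5/6Nx and 235 in sham (-3.09). Ulk1, for the kinase that starts autophagy, had 3149 in 5/6Nx and 5352 in sham (-1.07). Optn, for the cargo receptor optineurin, went the other way, with 405 in 5/6Nx and 93.9 in sham (1.80).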
